A study of Mus musculus with 4 samples.

Results

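Cytoplasmic ribosomal protein genes were described in single mammary epithelial cells of FVB/NJ mice. The members were the genes of the deposited tables whose symbols follow the Rps, Rpl and Rplp naming pattern, together with Rpsa. This gave 84 members of 27998 listed genes, 32 of the small subunit (Rps and Rpsa) and 52 of the large subunit (Rpl and Rplp). No measured value chose them. Gene expression had been measured by droplet RNA sequencing of 3′ ends in epithelium sorted as CD24+ and negative for the blood and endothelial markers Ter119, CD31 and CD45. Pubertal glands (5 weeks of age, 6 mice pooled), adult glands in estrus (10 weeks, 2 mice pooled) and adult glands in diestrus (10 weeks, 2 mice pooled) each gave 1 library, with the adult phases staged by vaginal cytology and no treatment named in the labels. With 1 library per stage, the animals within a pool could not be told apart and stages were compared without a test.

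A ribosome is built from ribosomal RNA and one copy of most ribosomal proteins, so their genes are expressed together and at high level in every cell. The small subunit reads the messenger RNA, the large subunit joins the amino acids, and the P proteins (Rplp0, Rplp1 and Rplp2) form a stalk on the large subunit that recruits elongation factors. Many of these messages begin with a C followed by a run of pyrimidines, known as a terminal oligopyrimidine start, which links their translation to mTOR signalling through the RNA-binding protein Larp1. The mammary epithelium holds basal (myoepithelial) cells, luminal progenitor (LP) cells and mature luminal (ML) cells, the last marked by hormone receptors.

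The libraries held 2439 to 5428 barcodes and 10962454 to 25365324 counts, a count being 1 captured molecule. The puberty sample has a second table that shares 5387 barcodes with the first, and it was used only as an alternative. No other pair of tables shared more than 24 barcodes. Cells were placed in basal, LP or ML classes from genes other than the members, and the 9 sets of 471 to 2183 cells, 1 per class and library, were each summed. The summed level of 8 basal markers was 23342 to 36272 counts per 1000000 counts (CPM) in basal and 47.5 to 169 CPM in luminal classes. The 8 LP markers summed to 18871 to 41892 CPM in LP and 199 to 642 CPM in the other classes. The 8 ML markers summed to 19044 to 24770 CPM in ML and 301 to 1313 CPM in the other classes. Over 5 genes each, immune markers summed to at most 34.4 CPM and endothelial markers to at most 25.4 CPM, with 1 to 4 of the 5 immune genes at 0. Fibroblast markers summed to 1.1 to 707 CPM and erythroid markers to 0.681 to 541 CPM. Both highest sums were in ML cells of diestrus and came mostly from 1 gene each, at 707 and 512 CPM. The fibroblast list there had 4 of its 5 genes at 0.

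The start of the message is the sequence feature these genes are known for. It is shown for 7 members named in the results, all taken from those that meet the strict rule below. Rpl35 and Rps15a, also named in the results, meet it and are not shown. Many other named members do not meet it and are not shown, among them Rpl41, Rps26, Rpl11, Rpl10, Rps28, Rplp0, Rpl27 and Rps4x. RefSeq start sites were matched for 63 members. A C at the first transcribed base followed by 4 bases each C or T was present in 13 of the 63 (20.6%), against 2.78% of 17999 listed genes with a start and 0 of 68 mitochondrial ribosomal protein genes. The windows below run from 15 bases before the start to 15 bases from it, on the gene's strand and on GRCm38.p6. Capitals mark the unbroken run of C and T that begins at the annotated start.
Rps6 (chr4:86857353-86857382, minus strand): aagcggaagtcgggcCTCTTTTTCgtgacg
Rps18 (chr17:33955651-33955680, minus strand): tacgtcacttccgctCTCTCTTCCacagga
Rps27 (chr3:90213634-90213663, minus strand): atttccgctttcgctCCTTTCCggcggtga
Rpl14 (chr9:120571502-120571531, plus strand): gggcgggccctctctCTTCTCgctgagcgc
Rpl15 (chr14:18270972-18271001, minus strand): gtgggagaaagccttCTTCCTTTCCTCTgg
Rpl38 (chr11:114668565-114668594, plus strand): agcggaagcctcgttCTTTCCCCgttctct
Rplp2 (chr7:141447636-141447665, plus strand): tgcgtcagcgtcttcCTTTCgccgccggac
The opening C and a run of at least 5 bases follow from the rule that chose these 7. The run extends from 5 bases in Rplp2 to 13 bases in Rpl15. An annotated start can lie a few bases from the start used in a tissue, so a looser feature was also counted. A run of at least 7 C or T within 10 bases either side of the start was present in 44.4% of members and in 14.2% of all listed genes. The ETS-type motif CCGGAAG, searched on both strands from 250 bases before to 50 bases after the start, was present in 41.3% of members, 12.5% of all genes and 36.8% of mitochondrial ribosomal protein genes. AAGATGG, the core bound by YY1, was present in 15.9% of members, 7.22% of all genes and 19.1% of mitochondrial ribosomal protein genes. Among tested members, the 13 with the strict start had a median coding length of 390 bases, a median basal against luminal log2 fold change of -0.25 and 7 members lower in basal cells. The 47 others had a median coding length of 453 bases, a median of -0.23 and 25 members lower in basal cells. By the same test, described with the lineages below (adjusted p under 0.05), 25.2% of all genes were lower in basal cells. A match describes these letters and is not evidence of a used site.

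Ribosomal protein genes took between 16.4% and 26.2% of all counts in a class. The puberty library gave 22.2% in basal cells (exact 95% binomial interval 22.13 to 22.21), 23.3% in LP cells (23.27 to 23.33) and 24.8% in ML cells (24.80 to 24.85). Estrus gave 16.4% (16.38 to 16.45), 18.5% (18.40 to 18.52) and 18.3% (18.28 to 18.35) for these classes in turn. Diestrus gave 23.1% (23.05 to 23.12), 25.8% (25.74 to 25.85) and 26.2% (26.17 to 26.27). The estrus library was lowest in each class, by more than the counting error that these intervals cover. Variation among mice or among library preparations is not part of them.

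**Figure D1:**
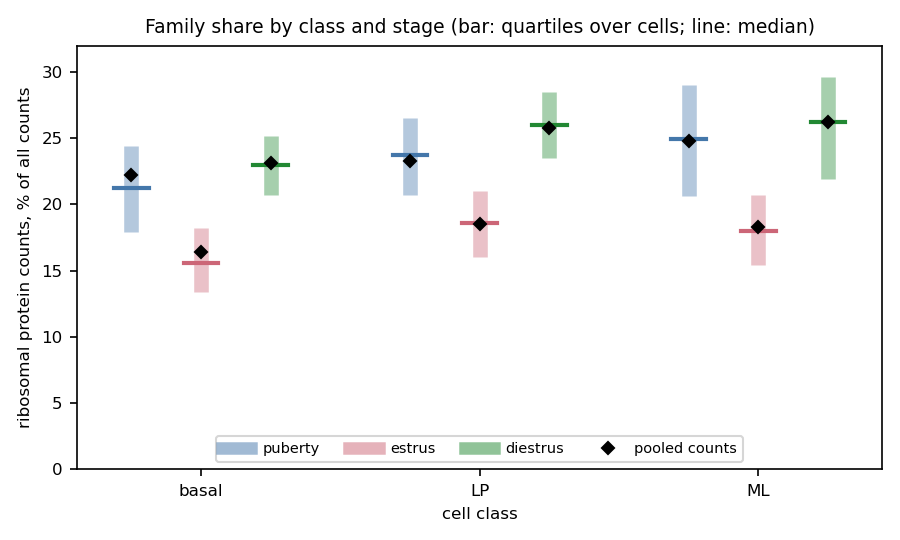
Share of all counts taken by the 84 ribosomal protein genes (y axis, percent) in basal, LP and ML cells (x axis) of 3 libraries. Bars span the quartiles over cells, lines mark the median cell and diamonds the pooled counts; the estrus bars are the lowest in each class, with medians of 15.6% to 18.6%.

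Between lineages, the share was lower in basal than in luminal cells of every library. Basal minus the mean of LP and ML was -1.89 percentage points in puberty, -1.97 in estrus and -2.92 in diestrus, or -2.26 ± 0.57 points (SD, n = 3 libraries). Basal cells also had fewer counts per cell, with medians of 2542 to 3413.5 against 3179 to 4668 in LP and ML cells. In cells limited to 3000 to 6000 counts the difference was -1.95 points. LP minus ML was -1.53, 0.15 and -0.43 points, a mean of -0.61 ± 0.85 (SD, n = 3 libraries), which is within the spread between libraries. Small subunit genes supplied 40.5% to 43.3% of the family's counts in all 9 class and library sets.

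Between stages, the difference lay mostly in members with short coding sequences. Coding length was taken from the GENCODE annotation of GRCm38. Its median was 456 bases over 83 members and 1170 bases over all listed genes, and the median transcript length was 882 against 2183 bases. The 39 members under 450 bases took 7% (basal), 7.24% (LP) and 8.43% (ML) of all counts in puberty and 7.7%, 8.46% and 9.19% in diestrus. In estrus they took 2.95%, 3.24% and 3.54%. The 19 members from 450 to under 600 bases took 4.23% to 5.05% in estrus and 5.67% to 6.9% in the other libraries. The 25 members of 600 bases or more took 9.49%, 9.86% and 9.77% in puberty, 9.19%, 10.2% and 9.67% in estrus, and 9.49%, 10.6% and 10.1% in diestrus. The long members thus ranged from 9.19% to 10.6% over the 9 sets, and each short-member value in estrus was below all of those in the other libraries.

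**Figure D2:**
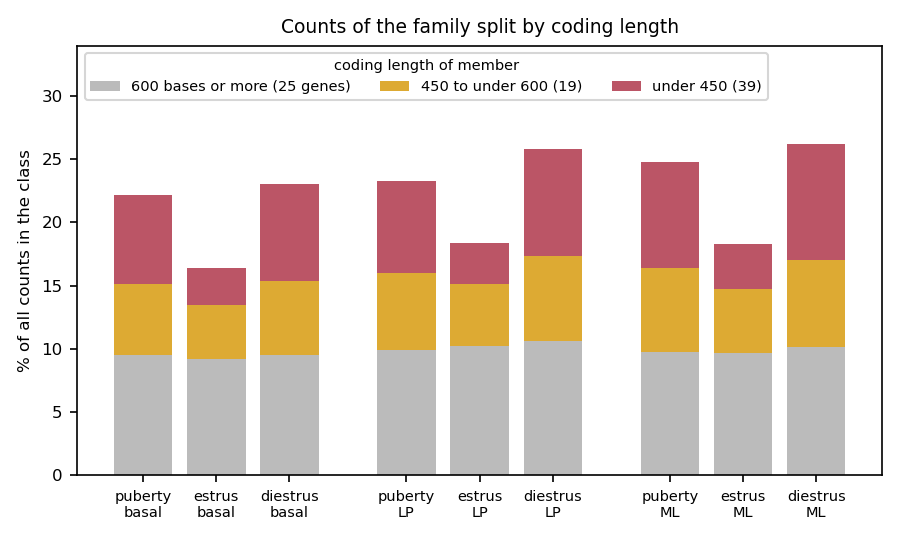
Counts of ribosomal protein genes as a percentage of all counts (y axis) in each class and library (x axis), stacked by coding length of the member; Rpl6l, which has no annotated coding sequence, is left out. The grey part, members of 600 bases or more, stays between 9.19% and 10.6%, and the red part, members under 450 bases, is 2.95% to 3.54% in estrus and 7% to 9.19% elsewhere.

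Gene by gene, members were called when a log2 ratio of normalized CPM exceeded 1.5-fold in all 3 classes. Higher in diestrus than estrus were 43 of 81 members tested, against 5.35% of all genes, and 1 was lower, against 1.51%. Higher in puberty than estrus were 48, against 5.23% of all genes, and 1 was lower, against 1.82%. Both comparisons share the estrus library and are not independent. For puberty against diestrus, 2 members were higher (2.78% of all genes) and 2 lower (1.76%). By coding length, 37 of 38 members under 450 bases, 6 of 19 from 450 to under 600 bases and 0 of 23 longer ones were higher in diestrus than estrus. The corresponding numbers for puberty against estrus were 38 of 38, 9 of 19 and 1 of 23.

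Across 80 members with a coding length, the diestrus to estrus ratio and coding length had a Spearman rho of -0.90 in each class (-0.895 to -0.903). For puberty against estrus rho was -0.934 to -0.936, and for puberty against diestrus 0.05 to 0.15. These describe genes of the same 3 libraries and carry no p-value. Leaving out the 25 members that share 3′ sequence with another listed gene gave -0.918 to -0.939 for diestrus against estrus over 56 members. Among the other genes, rho with coding length was -0.09 to -0.25 for diestrus against estrus. Short genes outside the family were also lower in estrus. Genes outside the family, here and in the trends below, include listed genes that share 3′ sequence with members. The values without those genes were not computed. Those with transcripts under 600 bases had a median log2 ratio, diestrus over estrus, of 1.29, 1.23 and 1.26 in basal, LP and ML cells over 91 genes. The 19 members of that length had medians of 1.71, 1.56 and 1.82. For transcripts of 1000 to under 2000 bases the medians were 0.05, -0.00 and 0.00 in other genes and 0.32, 0.23 and 0.43 in 23 members. Members were thus 0.23 to 0.56 above other genes in these 2 length classes on the log2 scale. From 600 to under 1000 bases they were 0.43, 0.35 and 0.65 above (33 members), and from 2000 bases 0.95, 0.81 and 0.81 (6 members). Matched on coding length they were 1.38, 1.25 and 1.63 above under 300 bases (10 members). From 300 to under 450 bases they were 1.18, 1.03 and 1.37 above (28 members), and from 450 to under 600 bases 0.55, 0.33 and 0.65 (19 members). From 600 to under 900 coding bases they were 0.09, 0.04 and 0.32 above. Subtracting the trend of the ratio with transcript length in other genes left member medians of 0.46, 0.31 and 0.64. Subtracting the trend with coding length left 0.68, 0.61 and 0.82.

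Recovery of short transcripts and a lower level of these messages in estrus cells cannot be told apart with 1 library per stage. A further difference between the libraries was the sum of 10 genes induced by tissue dissociation, such as Fos and Jun, which was 22704 to 29846 CPM in the estrus classes, 13607 to 17253 in diestrus and 6226 to 10530 in puberty. Its part in the family's values was not tested. A share of counts also cannot separate less ribosomal protein RNA from more of other RNA.

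**Figure D3:**
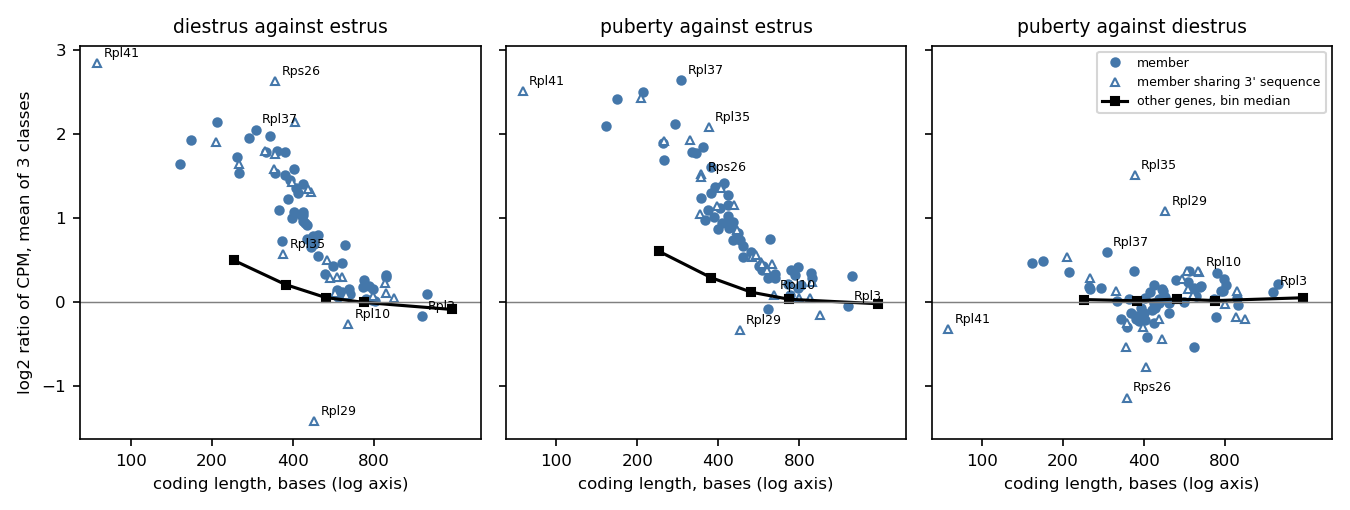
Log2 ratio of normalized CPM, mean of 3 classes (y axis), against coding length in bases on a log axis, for 80 members in 3 stage comparisons; open triangles are members that share 3′ sequence with another listed gene, and black squares the medians of other genes in 5 length bins. Against estrus the ratio is lower the longer the member (rho of -0.895 to -0.936), with Rpl41 at 2.84 for diestrus, Rpl37 at 2.64 for puberty and Rpl29 apart at -1.42 for diestrus; the third panel shows no such slope (rho of 0.05 to 0.15).

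The members farthest above the family in diestrus against estrus were Rpl41, Rps26 and Rpl38. Rpl41, at 75 bases of coding sequence the shortest member, lies at chr10:128548114-128549305 and encodes a peptide at the interface of the subunits. Its level was 731, 814 and 1003 CPM in estrus (basal, LP and ML), 5176, 5605 and 7514 in diestrus, and 3935, 4807 and 5873 in puberty. The estrus values lay below all the others, with log2 ratios, diestrus over estrus, of 2.82, 2.78 and 2.90 (intervals for counting error within 2.71 to 2.95). Rps26, a protein of the messenger RNA exit channel, was at 178, 248 and 218 CPM in estrus, 1124, 1296 and 1577 in diestrus and 465, 647 and 713 in puberty. Its order from estrus through puberty to diestrus held in each class. Rpl38, known for its role in translation of Hox messages, was at 211, 258 and 250 CPM in estrus, 952, 1038 and 1195 in diestrus and 1258, 1383 and 1430 in puberty. Here puberty was the highest stage in each class.

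At the other end, the lowest ratios to the family median were those of Rpl29, Rpl6l and Rpl10. Rpl29 was at 68.2, 81.3 and 87.2 CPM in estrus and 25.3, 29.8 and 31.3 in diestrus, with log2 ratios of -1.40, -1.42 and -1.45. Of its 3′ sequence, 61.2% of 50-base words occur in other listed genes, and Gm10709, which shares them, held 905 CPM in estrus and 674 in diestrus. Their sum gave a mean log2 ratio of -0.49. Rpl6l, which shares 68.7% of such words with Rpl6, had log2 ratios of -0.81, -0.995 and -0.51. Rpl10, a late-joining large subunit protein next to the P site, had -0.24, -0.49 and -0.07. All of its 3′ words (100%) occur in other listed genes. Summed with Rpl10-ps3, Rpl10 had a mean log2 ratio of -0.36, beside -0.27 alone. Rpl3, a long member and a core protein of the peptidyl transferase centre, had -0.33, -0.27 and 0.09, with 6027, 7889 and 5564 CPM in estrus and 4790, 6558 and 5910 in diestrus.

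Puberty and diestrus were alike for most members, with median log2 ratios of -0.00, 0.14 and -0.01 in basal, LP and ML cells beside 0.03, 0.08 and 0.02 over all genes. Highest relative to the family were Rpl35, Rpl29 and Rpl37, and lowest Rps26, Rpl27 and Rpl15. Rpl35 was at 2639, 3754 and 3192 CPM in puberty, 918, 1168 and 1272 in diestrus and 624, 903 and 743 in estrus. Puberty thus stood apart from both adult libraries, with log2 ratios over diestrus of 1.52, 1.68 and 1.33. Rpl37 had log2 ratios of 0.54, 0.66 and 0.58 and shares no such sequence with a listed gene. Rps26 had a mean of -1.14 over the classes. Rpl27 had -0.82, -0.80 and -0.71, and Rpl15 had -0.52, -0.48 and -0.62. The 2 members past 1.5-fold upward (Rpl35 and Rpl29) and the 2 downward (Rps26 and Rpl27) all share 3′ sequence with listed pseudogenes or copies.

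A copy here means any listed gene that shares 3′ sequence with a member, whether or not it is a pseudogene of it. In 18 of 23 pairs of a member and the copy with the highest mean level over the stages, the copy differed more between the puberty and diestrus libraries than the member did. Rps26-ps1 was at 55.9 CPM in puberty and 292 in diestrus (mean of the classes), a mean log2 ratio of -2.37 against -1.14 for Rps26. Gm10076, which shares sequence with Rpl41, was at 800 CPM in puberty and 124 in diestrus, a ratio of 2.69 against -0.32 for Rpl41. Gm10073 had 1.98 against -0.54 for Rplp1. Wdr89, which is not named as a ribosomal protein gene but shares 3′ sequence with Rplp2, had -2.11 against -0.25 for Rplp2. Of the copies of Rps18 (-0.20), Gm10260 had 1.58 and Rps18-ps3 -1.28. Gm2000 had -1.02 and Rpl35 1.51, and their sum, with 2 minor copies, 1.15. Reads from 3′ ends of these genes can fall in the shared sequence, so the values of the 25 members concerned are uncertain.

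**Figure D4:**
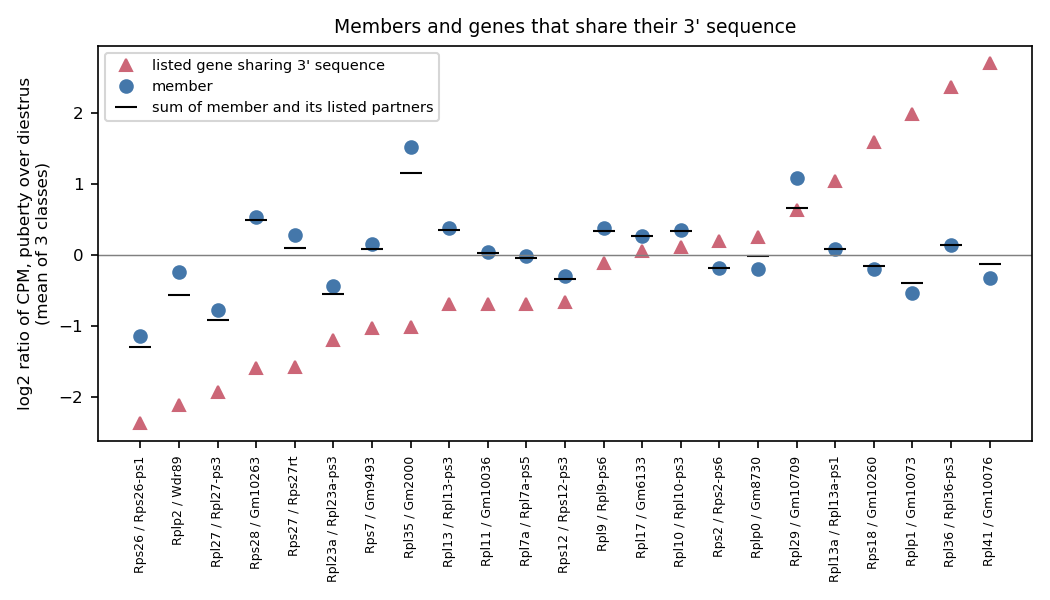
Log2 ratio of CPM, puberty over diestrus, mean of 3 classes (y axis), for 23 members (circles), the listed gene sharing their 3′ sequence that has the highest mean level over the stages (triangles) and the sum of the member with its listed partners (dashes). The copies range from -2.37 to 2.69 and the sums from -1.30 to 1.15.

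Lineages were compared with edgeR's quasi-likelihood test over the 3 libraries, fitted on 11147 genes with library as a block. Of 81 members tested, 46 were lower in basal than in luminal cells and 1, Rpl7, was higher (adjusted p under 0.05). Over all genes, 25.2% were lower in basal (higher in luminal) and 28.1% higher. The median member log2 fold change was -0.26 beside 0.02 over all genes. With library size alone both medians moved up by about 0.10, and the member median stayed 0.28 below that of all genes, as it did with the other 2 scalings run. The 46 members were lower in basal cells in 3 of 3 libraries. They comprised 16 of 32 small subunit and 30 of 49 large subunit members, and 21 of 38 members under 450 bases, 14 of 19 from 450 to under 600 bases and 10 of 23 longer ones. The remaining called member, Rpl6l, has no annotated coding sequence. Among the 56 members that share no 3′ sequence with a listed gene, 30 were lower in basal cells. Without the library block 1 member was lower and 0 higher by edgeR (3 and 0 at an unadjusted p under 0.05), and without the puberty library 24 and 0 (the latter also 0 unadjusted). DESeq2, with the block, called 42 lower and 1 higher.

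In the small subunit, Rps28, a protein near the messenger RNA exit (chr17:33819027-33824562), was at 1601, 308 and 1151 CPM in basal cells of puberty, estrus and diestrus. It was at 2416, 477 and 1533 in LP and 3181, 528 and 2317 in ML cells, so basal was lowest and ML highest in each library. Its log2 fold change, basal against luminal, was -0.74 ± 0.09 (SE, adjusted p = 6.1e-05). Rps18, a protein of the subunit head, had -0.63 ± 0.08 (adjusted p = 7.8e-05), with 3616, 1668 and 4371 CPM in basal cells and 5894, 2609 and 7197 in ML cells. Rps6, the substrate of S6 kinase, had -0.41 ± 0.08 (adjusted p = 0.00173). Rps2, Rps3a1 and Rpsa, which also serves as a laminin receptor, had 0.05 ± 0.08, 0.05 ± 0.08 and 0.01 ± 0.08 and did not pass the test.

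In the large subunit, Rpl11, known for binding Mdm2 when ribosome assembly fails, had -0.53 ± 0.08 (adjusted p = 0.000218). Its levels were 2735, 1963 and 2867 CPM in basal cells and 4251, 3002 and 3924 in LP cells. Of the stalk genes, Rplp0 had -0.52 ± 0.08 (adjusted p = 0.000238) and Rplp1 -0.49 ± 0.08 (adjusted p = 0.000433), both with 3 of 3 libraries. Rplp2 had -0.18 ± 0.08 (adjusted p = 0.0821). Rps28, Rps18, Rpl11, Rplp0 and Rplp1 all share 3′ sequence with a listed copy. Summed with these copies they had mean basal minus luminal log2 differences of -0.74, -0.63, -0.53, -0.52 and -0.50, beside -0.74, -0.63, -0.53, -0.52 and -0.49 alone. Rpl7 was the exception, at 4306, 3750 and 3729 CPM in basal cells, 3949, 3521 and 3204 in LP and 3104, 2604 and 2941 in ML cells. Its basal values were the highest of the 3 classes in each library (0.29 ± 0.08, adjusted p = 0.00967), although without the puberty library its adjusted p was 0.12.

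**Figure D5:**
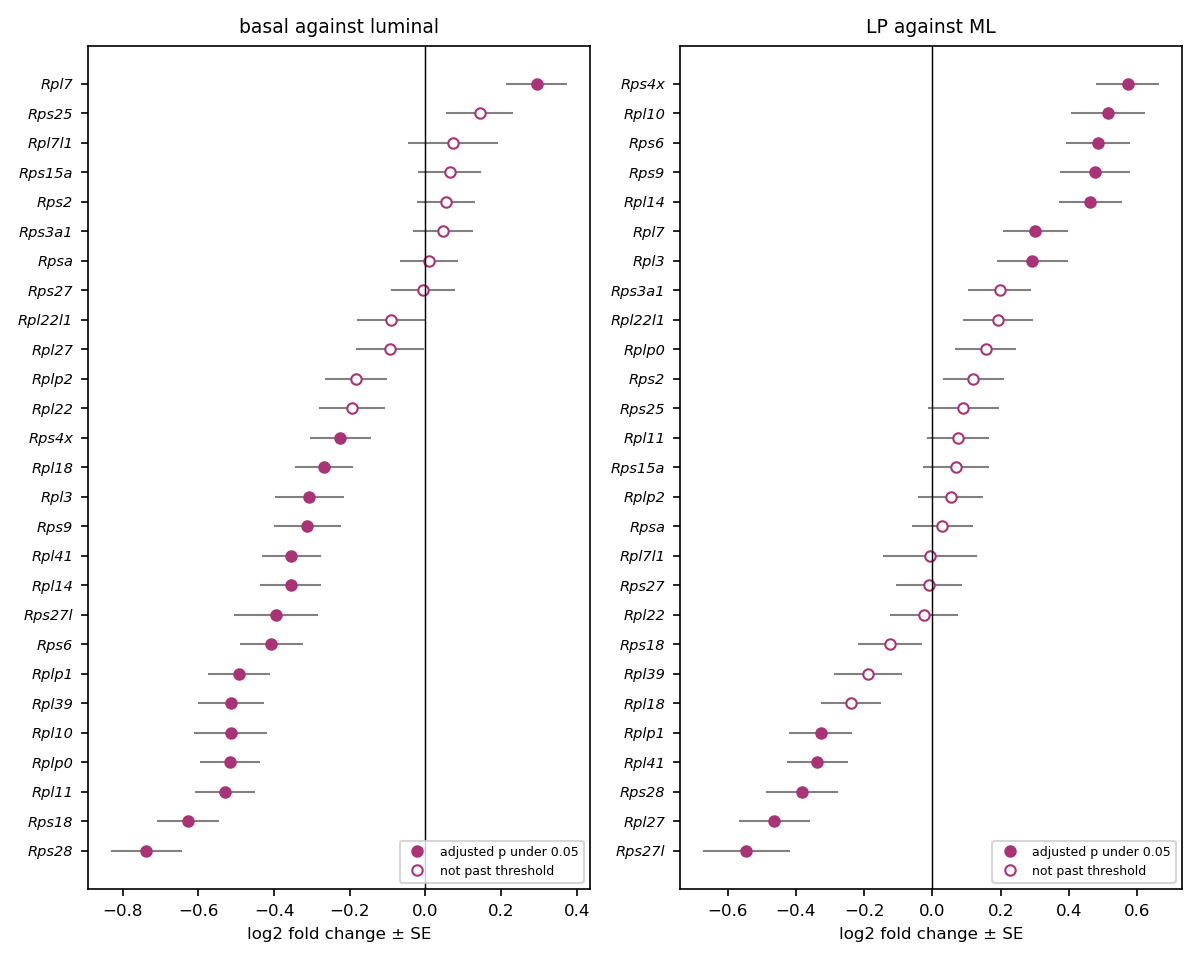
Log2 fold change with its SE (x axis) of named members (y axis) between basal and luminal cells (left) and between LP and ML cells (right), from edgeR over 3 libraries. Filled points passed an adjusted p of 0.05. Rps28 is lowest on the left, at -0.74, and Rpl7 is the highest, at 0.29; on the right members run from -0.55 (Rps27l) to 0.57 (Rps4x).

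Members were also compared with the family as a whole by scaling each sum to its ribosomal protein counts. On this scale 13 members were higher in basal cells and 14 higher in luminal cells (39.0% and 16.9% of all genes, whose median moved to 0.27). Rpl7 (0.55 ± 0.06, adjusted p = 1.4e-05), Rps2 (0.31 ± 0.05), Rps3a1 (0.30 ± 0.06), Rps25 (0.40 ± 0.08) and Rps15a (0.32 ± 0.07) held a larger part of the family in basal cells. Rps28 (-0.48 ± 0.07, adjusted p = 0.000195), Rps18 (-0.38 ± 0.06), Rpl11 (-0.28 ± 0.07), Rplp0 (-0.27 ± 0.07) and Rpl10 (-0.26 ± 0.07) held a smaller part. Each of these 10 passed an adjusted p of 0.05. Without puberty 6 members were higher in basal and 4 in luminal cells, and 8 and 5 were higher in luminal cells without estrus and without diestrus.

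The family as a whole had no clear direction between LP and ML cells. The main scaling was the trimmed mean of M values (TMM). On it 16 of 81 members were higher in LP and 5 higher in ML, against 21.8% and 19.2% of all genes. On this scale the number higher in LP was near the share of all genes, and the number higher in ML was below it. With library size alone 5 were higher in LP and 17 in ML. The member median was 0.03 above that of all genes on both scales. Under each of 4 scalings 10 members were called in the same direction, 5 higher in LP (Rps4x, Rps6, Rpl14, Rpl10 and Rps9) and 5 higher in ML (Rpl27, Rps27l, Rpl41, Rps28 and Rplp1). The share of all genes called under each of the 4 was not computed. These 10 are therefore named as single genes and not as a trait of the family. Scaled to the family, 5 members were higher in LP (17.0% of all genes) and 15 in ML (24.0%), and with size factors computed over the members 18 and 7. Without the library block 0 members passed the whole-table test of edgeR in either direction (2 higher in LP and 0 in ML at an unadjusted p under 0.05), and DESeq2, with the block, called 8 and 7. Without puberty 3 were higher in LP and 1 in ML, and without estrus 5 were higher in LP. On the family scale 9 were higher in ML without puberty, and 9 without diestrus.

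Rps4x, the X-linked copy of a small subunit protein, was at 7511, 6907 and 6278 CPM in LP cells of puberty, estrus and diestrus and 4817, 4310 and 4780 in ML cells. The classes did not overlap, with a log2 fold change of 0.57 ± 0.09 (adjusted p = 0.000546). Rps6 was at 9558, 7597 and 6821 CPM in LP and 6655, 4873 and 5581 in ML cells (0.49 ± 0.09, adjusted p = 0.00188). Rpl14, a large subunit protein, had 0.46 ± 0.09 (adjusted p = 0.00207), Rpl10 0.51 ± 0.11 (adjusted p = 0.00316) and Rps9 0.48 ± 0.10 (adjusted p = 0.00326). Rpl10 shares its 3′ sequence with Rpl10-ps3, and their sum had a mean LP minus ML log2 difference of 0.51, as Rpl10 had alone. Higher in ML cells were Rps27l, at 852, 240 and 592 CPM against 501, 153 and 511 in LP cells (-0.55 ± 0.13, adjusted p = 0.00561), and Rpl27 (-0.46 ± 0.11, adjusted p = 0.00461). Rpl41 had -0.34 ± 0.09 (adjusted p = 0.0107), Rps28 -0.38 ± 0.11 and Rplp1 -0.33 ± 0.09. Without the puberty library, 6 of the 10 had adjusted p values between 0.0526 and 0.0958 (Rpl10, Rps9, Rps27l, Rpl41, Rps28 and Rplp1), and Rps28 had 0.0578 without diestrus. The log2 fold change and coding length had a Spearman rho of 0.45 over 80 members for LP against ML and 0.20 for basal against luminal. Of 38 members under 450 bases, 2 were higher in LP and 5 in ML. The numbers were 5 and 0 of 19 from 450 to under 600 bases and 8 and 0 of 23 longer ones. Of 25 members that share 3′ sequence, 7 were higher in LP and 4 in ML, and of the 56 others 9 and 1. Over all genes 21.8% were higher in LP and 19.2% in ML. The part of short-transcript recovery in these lineage values was not tested.

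Levels differed widely within the family. Rpl13 had the most counts, 4.68% of the family on average and 8192 to 14216 CPM. Among the other members with many counts were Rps2 (3.22%), Rpl3 (2.89%) and Rps6 (2.84%). Per kilobase of transcript Rpl13 was also first, with a mean of 13136 CPM per kilobase. Reads come from 3′ ends, so counts need not scale with length. The 10 members with the most counts held 34% to 37% of the family's counts in estrus classes and 25.9% to 29.4% in the others.

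Paralogs within the family were unequal. Rpl3l and Rpl10l had 0 of 44066224 counts in the 9 sets, which allows up to 0.0681 CPM, and Rpl39l had 3 counts. Their partners Rpl3, Rpl10 and Rpl39 had means of 4571, 5161 and 969 CPM per kilobase. Rpl7l1 was at 90 to 128 CPM (mean 42.3 per kilobase) against 2972 per kilobase for Rpl7. It did not pass the basal against luminal test (0.07 ± 0.12, adjusted p = 0.634). Rpl22 and Rpl22l1 had means of 721 and 222 CPM, and of 351 and 402 CPM per kilobase, so their order depended on the scale. Rpl22 was at 376, 438 and 396 CPM in estrus and 716 to 1013 elsewhere, and Rpl22l1 at 132, 153 and 131 CPM in estrus and 210 to 307 elsewhere, so both were lowest in estrus. Rps27l, a target of p53, was at 869 and Rps27 at 5511 CPM per kilobase. The former was lower in basal than luminal cells (-0.40 ± 0.11, adjusted p = 0.0115), whereas Rps27 had -0.01 ± 0.08 (adjusted p = 0.956); the difference between the paralogs was not tested.

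Other genes of protein synthesis were read from lists. Among ribosome-bound genes outside the naming rule, Fau and Rpl36al were lower in basal cells (log2 fold changes -0.47 and -0.50) and Gnb2l1, the Rack1 scaffold, had -0.10 (adjusted p = 0.328). The counts that follow stand beside 28.1% of all genes higher and 25.2% lower in basal cells. Of 22 translation factors 4 were higher and 7 lower in basal cells, among them Eif4g2 (0.87) and Btf3 (-0.56). Of the elongation factors, Eef1a1 and Eef2 had -0.36 (adjusted p = 0.00571) and -0.45 (adjusted p = 0.00489), and Eef1b2, Eef1d and Eef1g, with -0.11, -0.12 and -0.06, did not pass the test. Ribosome biogenesis genes went the other way, with 13 of 25 higher in basal cells and 1, Nhp2, lower, and a median of 0.39. Nop58, a box C/D RNA-protein component, had 2.07 and Dkc1, the pseudouridine synthase, 0.84. In LP against ML cells 12 of the 25 were higher and 2 lower, beside 21.8% and 19.2% of all genes. Of 8 regulators 3 were higher in basal cells (Mycn, Myc and Mxd4) and 1, Larp1, was lower (-0.76 ± 0.16, adjusted p = 0.00192). Mycn was at 7.3 to 15.1 CPM in basal and at most 0.668 CPM in luminal classes (adjusted p = 6.43e-07). Myc was higher in basal (1.63 ± 0.28, adjusted p = 0.000583) and in LP cells (1.64 ± 0.35, adjusted p = 0.00306), and Mxd4 had 0.38 ± 0.11 in basal cells (adjusted p = 0.0113). In LP against ML cells 4 of the 8 were higher. The 76 tested mitochondrial ribosomal protein genes had a basal median of -0.27, with 34 lower and 6 higher. For 83 nuclear genes of oxidative phosphorylation the numbers were 24 and 10.

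By stage, 22 translation factors, with a median transcript length of 1829 bases, had median log2 ratios of -0.13, -0.10 and 0.06, diestrus over estrus, in basal, LP and ML cells. Nuclear oxidative phosphorylation genes, whose median transcript is 850 bases and so near that of the members, had 0.62, 0.60 and 0.50. Mitochondrial ribosomal protein genes (1288 bases) had 0.47, 0.40 and 0.22, and the members 0.74, 0.74 and 0.86. Length did not order all lists, since ribosome biogenesis genes (2491 bases) had 0.39, 0.55 and 0.68, and mitochondrially encoded genes (784 bases) had -0.36, -0.06 and -0.16.

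Cells in cycle, those with counts for at least 3 of 10 cell cycle genes, did not have a uniform difference in share. Cycling minus other cells was 0.57, 2.38 and -0.70 points in basal cells of puberty, estrus and diestrus, 0.20, -0.46 and -1.30 in LP cells and -2.03, -1.14 and -0.95 in ML cells. ML cells had a lower share in cycle in each library. Cycling cells had 6890 to 10603 counts at the median against 2480 to 4506 in the others, and the part of depth was not tested.

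Over the 9 sets, the genes outside the family whose level followed its share most closely, of 2636 with a mean of at least 50 CPM, were Fau, Anapc13, Ndufa3, Zfos1 and Dpm3, with Pearson r of 0.99, 0.98, 0.97, 0.96 and 0.96. Fau, first of these, encodes a ribosomal protein joined to a ubiquitin-like peptide and is not caught by the naming rule. On the TMM scale it was at 866, 1191 and 1001 CPM in estrus and 1600 to 2725 elsewhere, the correlation being on CPM scaled to library size alone. The 9 sets share 3 libraries, and the transcripts of all 5 genes are 515 to 827 bases long.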

How the data were processed

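The deposited files hold whole-number counts of molecules per gene and cell barcode, without normalization, which the authors made with Cell Ranger v2.0 on mm10 from 75-base NextSeq reads. Depth was 2702 to 4103 median counts per cell. The members, gene lists and comparisons were chosen with earlier results of these data known.

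Cells were classed by scores over 8 markers per lineage and signatures of up to 100 genes, without members. Intermediate luminal, mixed basal-luminal and non-epithelial cells stayed out of the 3 classes; doublets were not called. Counts were summed per class and library (9 sums) and tested with edgeR 4.0.16 (TMM, filterByExpr, quasi-likelihood F test, library as a block, Benjamini-Hochberg adjustment over 11147 genes, threshold 0.05; 81 of 84 members passed the filter). Classes of a library come from the same pooled mice, which gives the pairing. Each library is a pool of different mice at another stage, and p-values measure the spread of class differences between these 3 pools. Standard errors are those of the log2 fold change.

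Stage ratios are log2 of TMM-normalized CPM with a pseudocount of 1, among genes with a mean of at least 10 CPM; this understates changes of low genes. Intervals are exact and cover counting error only. Members and copies were named as sharing sequence when at least 10% of 50-base words in the last 500 bases of the transcript occur in another listed gene; 25 members did. Positions and lengths are from GENCODE M21 (GRCm38, 27645 genes matched) and start sequences from RefSeq. The proteins were not analysed here.

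Named members were the 5 with the smallest adjusted p in each direction of each lineage fit, the 3 highest and 3 lowest ratios to the family median between stages, the 5 with most counts, paralogs, stalk genes, Rpsa and Rps6. Other members are named as examples of a count, and were then chosen after their values were seen. Some results that these rules would name are not reported here. The fit was tested on simulated counts with seeded changes. Alternatives covered scaling, filters, DESeq2 1.42.0, the block, Leiden clusters, cell filters, the second puberty table, length and left-out libraries. Those with coding length, summed partners and a depth window were added after seeing the data.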

Additional observations from a re-analysis of the deposited data

Results flagged for a closer look

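Cells outside the 3 classes also carried the family. Intermediate luminal cells, placed between LP and ML, had shares of 26.4% in puberty (224 cells), 20.2% in estrus (109 cells) and 27.7% in diestrus (93 cells), above the shares of basal, LP and ML cells of the same library. Their median counts per cell were 6059 to 7051, also above those of the 3 classes. Mixed basal-luminal cells had 24.7% in puberty (92 cells), 17.6% in estrus (28 cells) and 25.4% in diestrus (35 cells). Whether these are pairs of cells in 1 droplet was not tested. The second puberty table, used only as an alternative, had a share of 24.2% beside 24% in the first. Groups of 3 libraries were too small to be screened for a sample far from the others.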

How the results depend on the processing

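The basal minus luminal share difference kept its direction under all 12 alternatives run, and was -2.99 points as a median over cells and -1.29 without members that share sequence; leaving out 1 library gave -2.44 to -1.93. LP minus ML gave -0.98 to -0.14. The share differences between stages also kept their direction. In the order median over cells, cycling cells left out and members sharing sequence left out, diestrus minus estrus (7.30 points) was 7.65, 7.64 and 4.89; puberty minus estrus (5.70) was 5.87, 5.79 and 3.99; puberty minus diestrus (-1.60) was -1.78, -1.85 and -0.90. For mitochondrial genes left out, Leiden clusters, the limit of 1000 genes and 10% mitochondrial counts, the second puberty table and cells of 3000 to 6000 counts, puberty minus estrus was 5.79, 5.87, 5.83, 5.89 and 6.10, and puberty minus diestrus -1.53, -1.40, -1.43, -1.41 and -1.24.

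Without the library block, 0 members were higher and 1 lower in basal cells, and 0 were called either way between LP and ML; this fit puts the differences between libraries into the residual spread. Calls higher in basal numbered 3 with library size alone. Calls higher in LP (16) numbered 5 with library size alone, 10 with TMM computed without members, and 8 each with DESeq2, no low-count filter, Leiden clusters and the limit on genes and mitochondrial counts. Calls higher in ML (5) numbered 17 with library size alone and 8 each with no filter and with that limit. Relative to the family, size factors over the members gave 18 higher in LP and 7 higher in ML. Leaving out 1 library gave 0 to 1 members higher and 24 to 47 lower in basal cells, 3 to 13 higher in LP and 1 to 5 higher in ML, the fewest without puberty each time. Relative to the family it gave 6 to 12 higher in basal, 4 to 8 higher in luminal, 5 to 5 higher in LP and 9 to 11 higher in ML. The causes were not tested.

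Members lower in diestrus than estrus (1) numbered 2 with library size alone, 2 with the transcript length trend subtracted, 2 with Leiden clusters, 0 at a mean of at least 50 CPM and 0 with partners summed. Members lower in puberty than estrus (1) numbered 2 with the transcript length trend and 0 with the coding length trend subtracted. Between puberty and diestrus, 1 member was higher at 50 CPM, and 5 were lower with library size alone (each 2 in the main values). No member named for a lineage difference changed direction under any alternative.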
